A study of Mus musculus with 16 samples.

Results

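The S100 and annexin calcium-binding genes were followed in liver RNA. The genes were chosen by name as S100a11, S100a4, S100a6, S100a10, Anxa2 and Anxa5, and 4 of these 6 were measured here among the 5205 genes listed in either of the deposited tables. S100a11, Anxa2 and Anxa5 had values in all 4 groups of mice, and S100a6 in TSP1F/F mice alone. S100a4 and S100a10 were not analysed here. Livers came from 16 male C57BL6 mice, 4 in each group, fed a low-fat (LF) diet or the AMLN diet, which is rich in fat, fructose and cholesterol and induces steatohepatitis, for 32 weeks. Both genotypes carried floxed alleles of Thbs1, the gene of thrombospondin 1 (TSP1). TSP1ΔPf4 mice also carried Pf4-Cre, a transgene active in megakaryocytes that removes Thbs1 from platelets, and TSP1F/F mice were their littermate controls. The deletion was therefore aimed at the platelet lineage, whereas the RNA came from whole liver. The study asked whether the liver's response to the AMLN diet differed when platelets lacked TSP1.

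S100 proteins are small intracellular proteins with a pair of EF-hand calcium-binding sites, and most act as dimers that dock onto target proteins when calcium rises. Annexins bind acidic phospholipids of membranes in the presence of calcium. The families meet in complexes: an S100A10 dimer bridges annexin A2 molecules at the plasma membrane, where the complex binds plasminogen, and S100A11 binds annexin A1 and annexin A2. In liver, RNAs of these genes are better known from bile duct cells, stellate cells, macrophages and injured tissue than from resting hepatocytes.

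In the mm10 build the S100 genes lie mostly in a cluster on chromosome 3. S100a11 (ENSMUSG00000027907) lies at chr3:93520488-93526287 on the forward strand, and S100a6 (ENSMUSG00000001025) at chr3:90612882-90624181 on the forward strand. Anxa5 (ENSMUSG00000027712) lies on the same chromosome, at chr3:36448923-36475894 on the reverse strand. Anxa2 (ENSMUSG00000032231) lies at chr9:69453620-69491795 on the forward strand. All 4 are protein-coding. The annotation places the antisense gene Gm16144 and the microRNA gene Mir3109 inside Anxa2, and Mir7009 inside Anxa5. Whether reads were counted by strand is not given in the sources used here, so reads from any stretch shared by exons of Anxa2 and Gm16144 cannot be told apart. Only whole gene spans were compared, and whether the exons overlap was not examined.

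The RNAs of S100a11, Anxa2 and Anxa5 varied together over the 16 mice, and S100a6, measured in TSP1F/F mice alone, was not part of that comparison. Such variation was common, since the 749 other genes in both tables had a median Pearson r of 0.66 with the mean of these 3. The promoters of the 4 measured genes are printed to set the members side by side. They were taken from RefSeq (GRCm38.p6, the mm10 assembly) and run 5′ to 3′ up to the annotated start of the gene: chr3:93520246-93520487 on the forward strand for S100a11, chr9:69453433-69453619 on the forward strand for Anxa2, chr3:36475895-36476137 on the reverse strand for Anxa5 and chr3:90612644-90612881 on the forward strand for S100a6. Capitals mark matches to short motifs searched on both strands in the 250 bases before the RefSeq start.
S100a11: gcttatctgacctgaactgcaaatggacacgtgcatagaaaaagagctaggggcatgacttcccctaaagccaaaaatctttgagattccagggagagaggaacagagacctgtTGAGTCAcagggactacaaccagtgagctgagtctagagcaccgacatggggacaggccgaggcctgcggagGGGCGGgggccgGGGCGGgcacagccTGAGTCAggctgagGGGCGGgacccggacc
Anxa2: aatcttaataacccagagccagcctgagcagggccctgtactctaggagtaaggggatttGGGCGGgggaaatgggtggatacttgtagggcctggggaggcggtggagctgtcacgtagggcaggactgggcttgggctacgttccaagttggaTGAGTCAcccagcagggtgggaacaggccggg
Anxa5: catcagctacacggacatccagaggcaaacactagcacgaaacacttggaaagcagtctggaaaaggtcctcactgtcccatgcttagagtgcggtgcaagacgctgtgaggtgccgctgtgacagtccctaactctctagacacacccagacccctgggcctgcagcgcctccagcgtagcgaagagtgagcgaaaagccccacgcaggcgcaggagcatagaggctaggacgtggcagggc
S100a6: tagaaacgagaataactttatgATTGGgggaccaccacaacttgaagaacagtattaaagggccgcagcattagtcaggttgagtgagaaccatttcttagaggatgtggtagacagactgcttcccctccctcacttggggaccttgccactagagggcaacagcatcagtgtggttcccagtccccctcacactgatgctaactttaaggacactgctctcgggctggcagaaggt

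The letters of the AP-1 motif (TGANTCA, where N is any base) occurred in S100a11 at 136 and 38 bases before the RefSeq start, and in Anxa2 at 95 bases before it. Of all 32851 promoters of that length, 6.75% held an AP-1 motif. The SP1 motif (GGGCGG) occurred in S100a11 at 64, 52 and 24 bases before the start and in Anxa2 at 190, 48 and 24, and 32.7% of all promoters held it. A TATA motif (TATAAA) lay 17 bases before the start of Anxa2, against 12.4% of all promoters with one, and an NF-Y motif (CCAAT, read on the other strand as ATTGG) lay 228 bases before that of S100a6, against 33.8%. The last pair of SP1 matches and the TATA match of Anxa2 fall between the gene's annotated start and the RefSeq start and are not in the stretch printed. The Anxa5 window held none of these letters, nor those of the TEAD (GGAATG, in 12.6% of all promoters) and PU.1 (GAGGAAG, in 10.6%) motifs. No match overlapped another. A match is a string of letters, and binding was not measured.

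The AMLN libraries held 18362810 to 39753019 counted reads and the LF libraries 17127965 to 26649603. Levels are given as CPM, which scales counts to a common library total, and, where genes are set against each other, as FPKM, which also divides by gene length. Each table holds only genes that differed between the diets in its own genotype at an unadjusted p-value of at most 0.0499. Being listed was therefore itself a diet result, and a gene's diet difference below is not independent of its listing. Thbs1 had values in TSP1F/F mice only and so does not check the genotype labels. Nothing in the labels places the 4 mice of a group in separate litters or cages, and p-values set a difference against the spread between these mice. In whole liver, fewer cells of a type and less RNA per cell cannot be told apart. As a check of the tissue, the hepatocyte markers Ttr and Serpina1a summed to between 2695 and 8424 CPM in every mouse.

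S100a11 rose on the AMLN diet in TSP1F/F livers. S100A11, also called calgizzarin, is a small partner of annexins A1 and A2. In TSP1F/F mice on the LF diet S100a11 had 2.87, 4.502, 2.59 and 2.03 CPM in replicates 1 to 4. On the AMLN diet the 4 mice had 19.7, 18.9, 26.0 and 14.8 CPM. Every AMLN-fed mouse lay above every LF-fed mouse. The means were 2.998 ± 1.06 and 19.8 ± 4.66 CPM (SD, n = 4 each), a 6.63-fold difference with a log2 fold change of 2.73 (standard error 0.35, 95% interval 1.95 to 3.50) and a Benjamini-Hochberg adjusted p of 0.0138 in the quasi-likelihood test of edgeR. It was the 1 gene of the 4 called raised, that is, with an adjusted p below 0.05 and a log2 fold change beyond 0.25 in size. Of the 2096 genes of this table that passed the filter on low counts, as all 4 did, 2.39% were called raised. Of 8 refits, each with 1 mouse omitted, 6 kept the call, and the adjusted p reached 0.0681 without LF replicate 4 and 0.0595 without AMLN replicate 3.

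S100a6 had the widest spread relative to its mean of the 4 genes, in both TSP1F/F groups. S100A6, or calcyclin, is a small S100 protein of growing and fibroblast-like cells. In TSP1F/F mice it had 1.36, 4.29, 3.80 and 1.13 CPM on LF and 3.66, 7.50, 10.7 and 15.9 CPM on AMLN. AMLN replicate 1 lay below LF replicates 2 and 3, so the groups overlapped. The means were 2.64 ± 1.63 and 9.44 ± 5.18 CPM (SD, n = 4 each), with a log2 fold change of 1.84 (standard error 0.58) that was not called, at an adjusted p of 0.253 by edgeR. The AMLN mouse highest in S100a6 was replicate 4, which was the lowest of its group in the other 3 members.

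Anxa2 encodes annexin A2, the annexin that S100A10 and S100A11 bind. Its levels in TSP1F/F mice were 6.26, 23.4, 12.1 and 14.2 CPM on LF and 47.0, 52.2, 88.8 and 33.8 CPM on AMLN. The groups did not overlap, the lowest AMLN mouse standing above the highest LF mouse. The means of 13.97 ± 7.10 and 55.5 ± 23.6 CPM (SD, n = 4 each) differed 3.97-fold, a log2 fold change of 1.99 (standard error 0.42, 95% interval 1.06 to 2.92) that was not called, at an adjusted p of 0.0829 by edgeR. DESeq2, the tool the study used, was rerun here on the listed genes alone. It called Anxa2 at an adjusted p of 0.0084 and a log2 fold change of 1.60, as 1 of 741 genes it called in TSP1F/F mice.

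Anxa5 encodes annexin A5, which binds phosphatidylserine, the lipid shown on the surface of dying cells and activated platelets. It had 41.0, 44.8, 27.1 and 42.9 CPM in the LF-fed TSP1F/F mice and 130, 89.7, 206 and 68.9 CPM in the AMLN-fed ones. Again no AMLN-fed mouse fell within the LF range. The means were 38.9 ± 8.05 and 124 ± 60.5 CPM (SD, n = 4 each), with a log2 fold change of 1.67 (standard error 0.35, 95% interval 0.90 to 2.44) that was not called by edgeR, at an adjusted p of 0.0775, and was called by DESeq2, at 0.0169. Groups that did not overlap, with AMLN higher, were common in this table and made up 36.6% of its genes. DESeq2 calls were also common here, at 741 genes against 52 by edgeR. The median log2 fold change of the 4 members was 1.91, beside 1.15 over the 2096 genes.

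**Figure D1:**
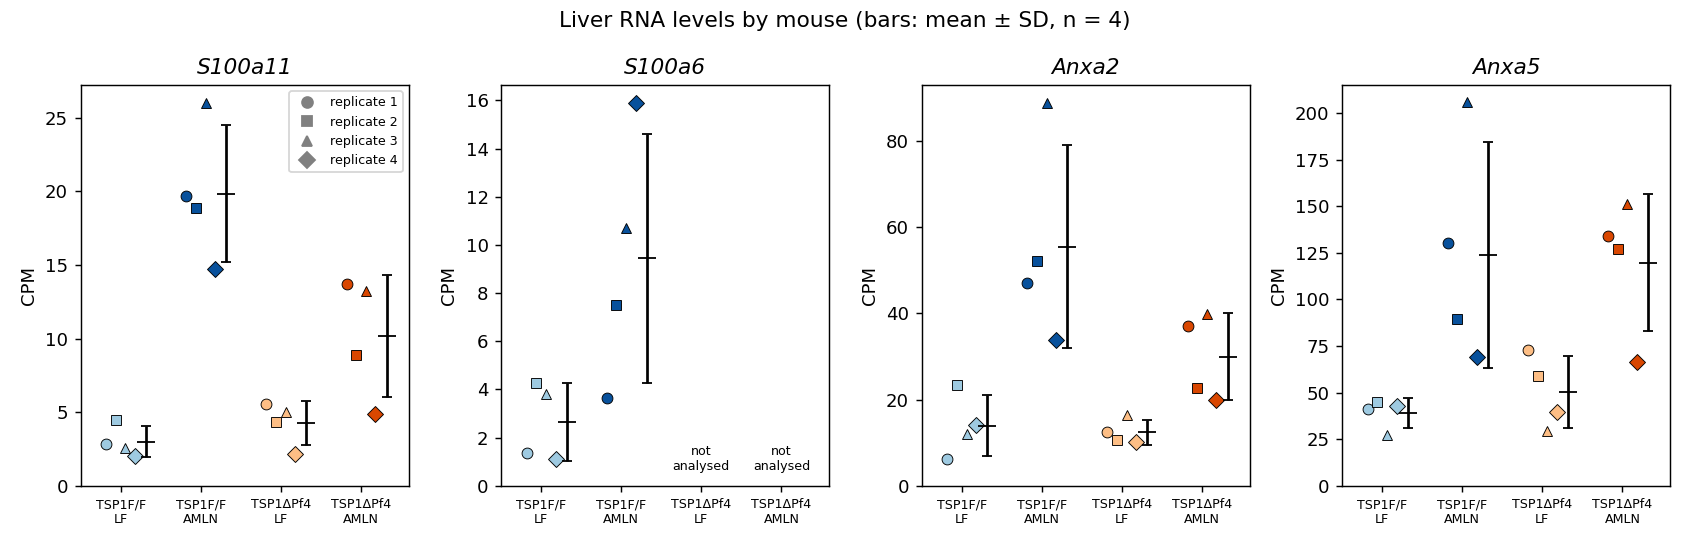
CPM of S100a11, S100a6, Anxa2 and Anxa5 (vertical axes, 1 panel each) in each mouse of the 4 groups (horizontal axes), with a marker shape for each replicate number and a bar for the mean ± SD of 4 mice. AMLN-fed TSP1F/F mice lie at 14.8 to 26.0 CPM for S100a11, above all TSP1ΔPf4 mice on the same diet (4.87 to 13.7), while for Anxa5 the AMLN groups overlap, at 68.9 to 206 CPM in TSP1F/F and 66.5 to 151 in TSP1ΔPf4 mice.

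In TSP1ΔPf4 mice the diet differences of the 3 measured members had the same direction, and none was called in the main edgeR fit, scaled by library totals. S100a11 had 5.52, 4.35, 5.02 and 2.18 CPM on LF and 13.7, 8.88, 13.2 and 4.87 CPM on AMLN. AMLN replicate 4 lay within the LF range, and the other 3 AMLN-fed mice lay above it. The means were 4.27 ± 1.48 and 10.2 ± 4.15 CPM (SD, n = 4 each), with a log2 fold change of 1.25 (standard error 0.38) and an adjusted p of 0.112. Anxa2 had 12.4, 10.6, 16.5 and 10.2 CPM on LF and 37.1, 22.7, 40.0 and 19.9 CPM on AMLN. These groups did not overlap, and their means of 12.4 ± 2.89 and 29.9 ± 10.1 CPM (SD, n = 4 each) gave a log2 fold change of 1.27 (standard error 0.28) and an adjusted p of 0.0620. Anxa5 had 72.7, 58.8, 29.4 and 39.7 CPM on LF and 134, 127, 151 and 66.5 CPM on AMLN. AMLN replicate 4 lay below LF replicate 1, and the other 3 AMLN-fed mice exceeded all LF-fed ones. Its means were 50.2 ± 19.3 and 120 ± 36.8 CPM (SD, n = 4 each), with a log2 fold change of 1.25 (standard error 0.33) and an adjusted p of 0.0844.

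Of the 3089 genes of the TSP1ΔPf4 table that passed the filter, 1.46% were called raised, and 20.4% had AMLN values above and apart from the LF values. The median log2 fold change of the 3 members was 1.25, beside -0.54 over those genes. The calls differed between settings. By edgeR with TMM scaling Anxa2 was called, at a log2 fold change of 1.62 and an adjusted p of 0.0250. S100a11 (adjusted p = 0.0704) and Anxa5 (0.0659) were not called by that fit. DESeq2, which changes the test as well as the scaling, called all 3, and with them 1376 of the genes of this table in total. Its adjusted p-values were 0.0041 for S100a11, 7.76e-06 for Anxa2 and 0.0029 for Anxa5.

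On the AMLN diet S100a11 and Anxa2 had lower means in TSP1ΔPf4 than in TSP1F/F livers and Anxa5 had nearly the same mean. None of the 3 was called in the main edgeR fit, which scaled by library totals and had no replicate block. The S100a11 values of the genotypes, 14.8 to 26.0 CPM in TSP1F/F and 4.87 to 13.7 CPM in TSP1ΔPf4, did not overlap. Its log2 fold change, TSP1ΔPf4 over TSP1F/F, was -0.96 (standard error 0.35, 95% interval -1.73 to -0.20), with an adjusted p of 0.112 by edgeR over the 733 genes of both tables that passed the filter. For S100a11 the difference was smaller with TMM scaling (-0.68, edgeR adjusted p = 0.324) and with DESeq2 (-0.61, adjusted p = 0.364). A two-sided exact permutation test of its log2 levels gave p = 0.0286, the smallest that 4 against 4 mice allow. Groups that did not overlap, with TSP1ΔPf4 lower, made up 12.4% of the genes tested, and 8.46% were called lowered.

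Anxa2 gave a log2 fold change of -0.89 (standard error 0.35, 95% interval -1.65 to -0.13), with an adjusted p of 0.133. With TMM scaling Anxa2 gave -0.62 (edgeR adjusted p = 0.351), and with DESeq2 -0.53 (adjusted p = 0.435). TSP1ΔPf4 replicates 1 and 3 lay within the TSP1F/F range and the other pair below it. Its exact permutation test gave p = 0.0857. For Anxa5 the log2 fold change was -0.05 (95% interval -0.85 to 0.75, adjusted p = 0.949), and its direction turned to higher with TMM scaling (0.22), with DESeq2 (0.32) and without TSP1F/F replicate 3 (0.31). The median over the 733 genes was itself -0.38, and -0.10 and -0.03 under TMM and DESeq2 scaling. S100a11 and Anxa2 lay below that median and Anxa5 above it.

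Within the AMLN groups some members ranked the mice in the order of the library totals and others did not. In TSP1F/F mice the AMLN totals were 33053654, 22269647, 39753019 and 18362810 reads in replicates 1 to 4, and S100a11 and Anxa5 ranked the mice in that same order. Anxa2 was higher in replicate 2 (52.2 CPM) than in replicate 1 (47.0). S100a6 was highest in replicate 4 (15.9 CPM), the smallest library, and lowest in replicate 1 (3.66). In TSP1ΔPf4 mice the totals were 29976419, 24319981, 31363462 and 23221536 reads, and Anxa2 and Anxa5 ranked them in that order. There S100a11 was higher in replicate 1 (13.7 CPM) than in replicate 3 (13.2), the largest library. CPM already divides by these totals, and their part in the differences was not tested.

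On the LF diet the genotypes overlapped for all 3 members. The log2 fold change was 0.51 (95% interval -0.40 to 1.42, adjusted p = 0.715) for S100a11, -0.17 (-1.004 to 0.67, adjusted p = 0.886) for Anxa2 and 0.37 (-0.33 to 1.06, adjusted p = 0.736) for Anxa5, all by edgeR's quasi-likelihood test. Of the 640 genes tested 0 were called by edgeR, 44 had an unadjusted p under 0.05, and DESeq2 called 1, which was none of these. These intervals still include differences of more than 1.5 times in at least 1 direction.

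The difference between the genotypes' diet responses was tested by an interaction term over all 16 mice. S100a11 gave -1.47 on the log2 scale (standard error 0.54, 95% interval -2.61 to -0.34), an adjusted p of 0.161 by edgeR, so the smaller diet response in TSP1ΔPf4 mice was not called. The terms were -0.72 for Anxa2 (-1.83 to 0.39, adjusted p = 0.624) and -0.41 for Anxa5 (-1.47 to 0.64, adjusted p = 0.826). Of the 734 genes tested 0.409% were called, and the median term was -0.34. The comparisons above share mice, so each one's values are given for themselves.

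**Figure D2:**
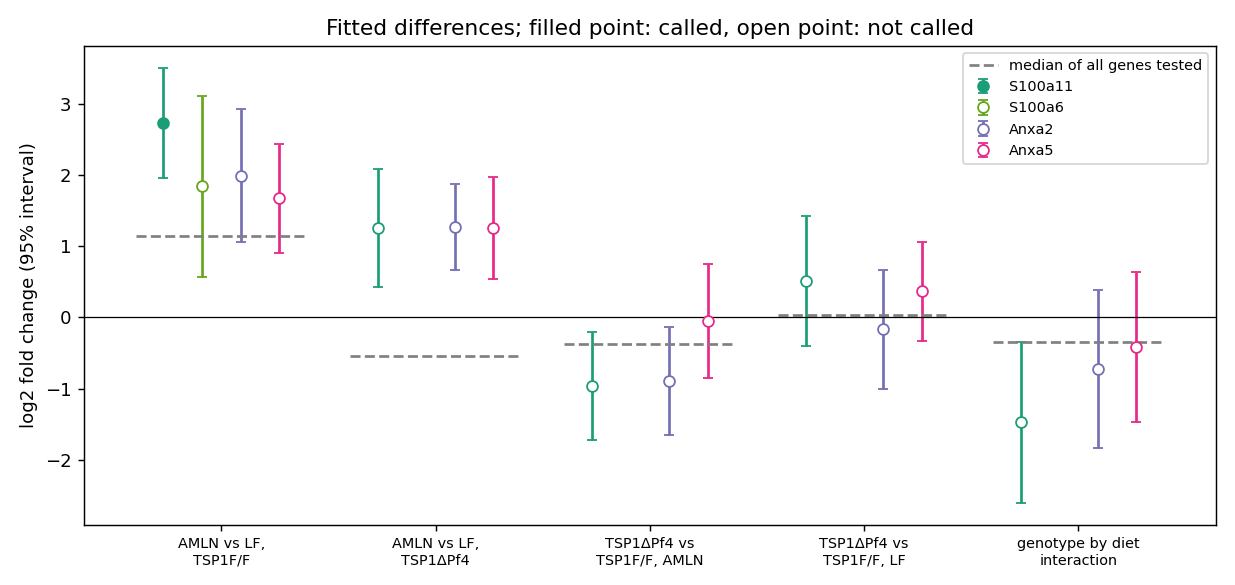
Log2 fold change with its 95% interval (vertical axis) of S100a11, S100a6, Anxa2 and Anxa5 in the diet comparisons, the genotype comparisons and the interaction (horizontal axis), with filled points for called genes and a dashed line for the median of all genes tested. S100a11 in TSP1F/F mice (2.73) is the only filled point, and on the AMLN diet S100a11 (-0.96) and Anxa2 (-0.89) lie below the median of -0.38.

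Ordered by mean CPM, S100a11 ran from LF TSP1F/F (2.998) through LF TSP1ΔPf4 (4.27) and AMLN TSP1ΔPf4 (10.2) to AMLN TSP1F/F (19.8). The LF groups overlapped, as did the diets within TSP1ΔPf4, and only the step between the AMLN groups had no overlap. Anxa2 ran from LF TSP1ΔPf4 (12.4) through LF TSP1F/F (13.97) and AMLN TSP1ΔPf4 (29.9) to AMLN TSP1F/F (55.5), with overlap at every step, including that of LF TSP1F/F replicate 2 with AMLN TSP1ΔPf4. Anxa5 fell into 2 levels, with LF means of 38.9 and 50.2 CPM and AMLN means of 120 and 124 CPM, and the genotypes overlapped on each diet.

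Per gene length, Anxa5 was the most abundant of the 4 in every group. In AMLN-fed TSP1F/F livers the mean FPKM was 69.7 ± 34.1 for Anxa5, 38.8 ± 9.12 for S100a11, 14.9 ± 6.31 for Anxa2 and 6.91 ± 3.79 for S100a6 (SD, n = 4). On LF the same livers' means were 21.9 ± 4.53, 5.87 ± 2.08, 3.75 ± 1.90 and 1.93 ± 1.19 FPKM. In TSP1ΔPf4 mice Anxa5, S100a11 and Anxa2 had mean FPKM of 28.2, 8.35 and 3.33 on LF and 67.4, 19.9 and 8.02 on AMLN. The order of the 3 genes by mean FPKM was the same in all 4 groups.

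The ratio of a pair of members within a mouse does not depend on the library total. These ratios were computed after the levels had been seen. On the AMLN diet the S100a11 count was 12.6 to 21.4% of the Anxa5 count in TSP1F/F mice and 6.99 to 10.2% in TSP1ΔPf4 mice, without overlap. The means were 17.6% and 8.32%, a log2 difference of -1.06 with an exact permutation p of 0.0286 and 0.0857 after Benjamini-Hochberg adjustment over the 9 ratio tests made. Anxa2 likewise stood at 36.0 to 58.2% of Anxa5 in TSP1F/F and 17.9 to 29.8% in TSP1ΔPf4, a log2 difference of -0.88 with the same exact p of 0.0286 and adjusted p of 0.0857. S100a11 stood at 29.3 to 43.6% of Anxa2 in TSP1F/F and 24.5 to 39.1% in TSP1ΔPf4, which overlapped, with an exact permutation p of 0.429. Leaving out each AMLN mouse in turn, the first difference ran from -1.20 to -0.95 and the second from -0.99 to -0.72.

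With the diet, the ratio of S100a11 to Anxa5 in TSP1F/F mice went from 4.72 to 10.1% on LF to 12.6 to 21.4% on AMLN, a log2 difference of 1.19 without overlap (exact permutation p = 0.0286, adjusted p = 0.0857). In TSP1ΔPf4 mice the same ratio was 5.47 to 17.1% on LF and 6.99 to 10.2% on AMLN, a difference of -0.05 (exact permutation p = 0.857). The LF value of 17.1% was replicate 3, the mouse lowest in Anxa5 of its group. The 4 other diet tests of these ratios all had overlapping groups.

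**Figure D3:**
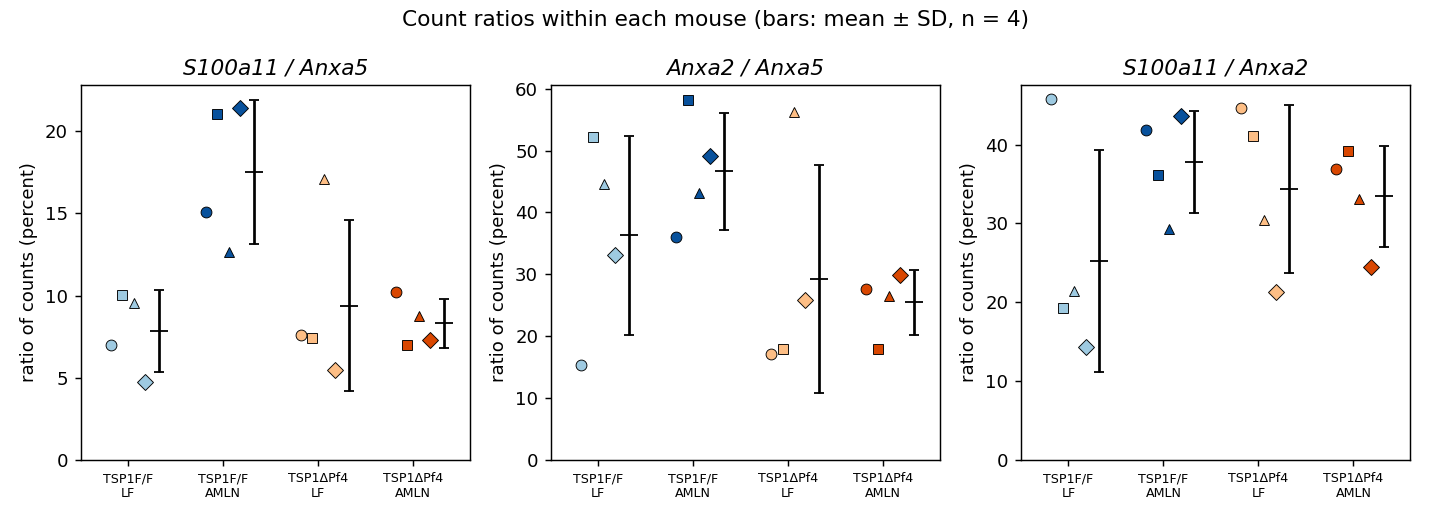
Ratio of the counts of S100a11 to Anxa5, Anxa2 to Anxa5 and S100a11 to Anxa2 in percent (vertical axes) in each mouse of the 4 groups (horizontal axes), with the mean ± SD of 4 mice. On the AMLN diet the ratios to Anxa5 are higher in every TSP1F/F mouse (12.6 to 21.4% and 36.0 to 58.2%) than in any TSP1ΔPf4 mouse (6.99 to 10.2% and 17.9 to 29.8%), while that of S100a11 to Anxa2 overlaps.

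Over the 16 mice the log2 levels of S100a11 and Anxa2 had a Pearson r of 0.92, those of S100a11 and Anxa5 0.85 and those of Anxa2 and Anxa5 0.79. These are descriptions over mice that share the diet difference, and each point shares its library total. Of the 749 other genes in both tables, whose median r with the mean of the 3 members was 0.66, the 10 nearest were Slc7a8 (an amino acid transporter, r = 0.94), Tagln2 (transgelin 2, an actin-binding protein, 0.92), Fam83a (0.92), Col6a1 (a collagen VI chain, 0.91), Gprc5b (an orphan receptor, 0.91), Ttc39a (0.91), Smpd3 (neutral sphingomyelinase 2, 0.91), Slc39a4 (a zinc transporter, 0.90), Ephb2 (an ephrin receptor, 0.90) and Uap1l1 (0.90). Tagln2 had 3.82 ± 2.17, 18.2 ± 7.20, 5.41 ± 1.31 and 12.3 ± 2.66 CPM (SD, n = 4) in LF TSP1F/F, AMLN TSP1F/F, LF TSP1ΔPf4 and AMLN TSP1ΔPf4 mice. None of the 10 was called between the genotypes on AMLN, where their adjusted p-values by edgeR ran from 0.0876 (Uap1l1) to 0.878 (Ephb2).

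Among relatives, different S100 genes were listed in each genotype. Of 13 other S100-named genes, S100a8, a subunit of the neutrophil protein calprotectin, was measured in TSP1F/F mice, at 0.747 ± 0.426 CPM on LF and 3.29 ± 2.90 on AMLN (SD, n = 4 each), and was not called (log2 fold change 2.13, adjusted p = 0.345). In TSP1ΔPf4 mice S100a13, a partner in the release of proteins that lack a signal sequence, fell from 37.2 ± 11.2 to 13.6 ± 4.57 CPM (SD, n = 4 each), a log2 fold change of -1.45 with an adjusted p of 0.0485 by edgeR, and 1.52% of that table's genes were called lowered. With 1 mouse omitted at a time, 1 of 8 refits kept that call, at adjusted p-values from 0.0413 to 0.174. S100a1, best known from heart muscle, had 256 ± 105 and 94.4 ± 29.3 CPM (log2 fold change -1.44, adjusted p = 0.0600), and S100a16 had 41.0 ± 9.33 and 23.1 ± 6.84 CPM (-0.83, adjusted p = 0.121), and neither was called by edgeR. S100a1 was called with TMM scaling (adjusted p = 0.0440) and by DESeq2 (0.000428), which called 198 and 1376 genes of that table. S100a1, S100a13 and S100a16 lie at the proximal end of the chromosome 3 cluster, with S100a14 between the last pair. S100a1 stands on the reverse strand and runs from its start at 90514392 down to 90511034. S100a13 and S100a16 stand on the forward strand and start at 90514435 and 90537254. The 5′ ends of S100a1 and S100a13 are thus less than 100 bases apart.

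Of 10 other annexin genes, 5 were measured in TSP1F/F mice and 2 in TSP1ΔPf4 mice, all 7 with higher AMLN means and none called by edgeR. Their median log2 fold change was 1.65 in TSP1F/F and 0.63 in TSP1ΔPf4 mice, beside 1.15 and -0.54 over all genes tested. In TSP1F/F mice the log2 fold changes were 3.76 for Anxa8 (adjusted p = 0.160), 1.78 for Anxa9 (0.373), 1.65 for Anxa13 (0.392), 1.54 for Anxa3 (0.224) and 1.47 for Anxa1 (0.283), the annexin that S100A11 also binds. In TSP1ΔPf4 mice they were 0.86 for Anxa11 (0.137) and 0.40 for Anxa6 (0.369). DESeq2 called Anxa8 (adjusted p = 0.0068) and Anxa11 (0.0069), among 741 genes called in TSP1F/F and 1376 in TSP1ΔPf4 mice. Anxa8 was scarce on LF, with 0.275 ± 0.245 CPM and no count in at least 1 mouse. The other S100 and annexin genes had values in 1 genotype only, and so no genotype comparison.

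**Figure D4:**
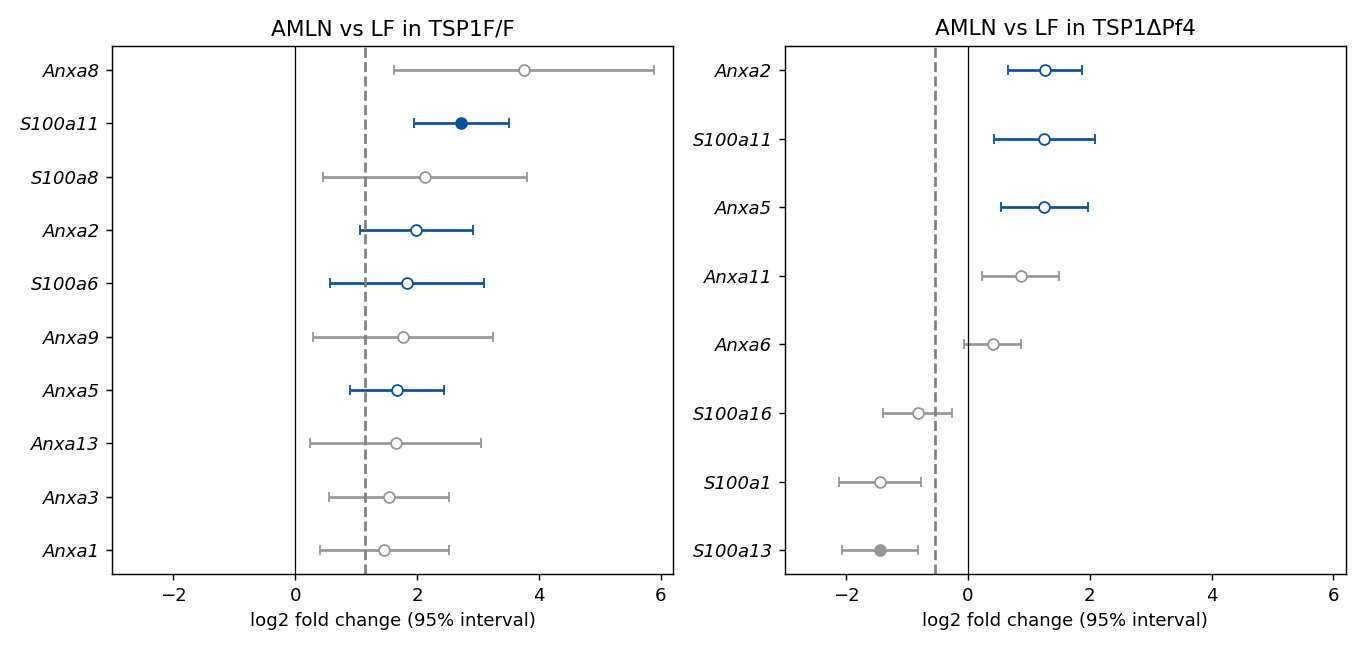
Log2 fold change of AMLN over LF with its 95% interval (horizontal axes) for each S100 and annexin gene measured (vertical axes) in TSP1F/F (left) and TSP1ΔPf4 mice (right), members in blue, relatives in grey, called genes filled, and the median of all genes tested dashed. All 10 genes lie above 0 in TSP1F/F mice, and in TSP1ΔPf4 mice 3 S100 genes lie below 0, S100a13 at -1.45.

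Genes that work with the members were read from lists. Those counted as measured had been selected for a diet difference, and most genes tested in TSP1F/F mice were higher on AMLN. Of 10 genes of the annexin A2 and plasminogen system, Plau, Plat, Plaur and Ahnak were measured in TSP1F/F mice, all with higher AMLN means and none called, with a median log2 fold change of 3.04 beside 1.15 over all genes. Plau and Serpinf2 were measured in TSP1ΔPf4 mice, 1 in each direction and neither called. Of 4 receptors of extracellular S100 proteins, Tlr4 was measured, in TSP1F/F mice, with a log2 fold change of 1.66 and no call. Of 16 cytoskeleton and galectin genes, 13 were measured in TSP1F/F mice, all with higher AMLN means. Their median log2 fold change was 1.78, beside 1.15 over all genes. Of these, 2 were called raised, beside 2.39% of all genes tested. Lgals3 (galectin 3) rose from 3.27 ± 1.17 to 34.9 ± 17.8 CPM (log2 fold change 3.41, adjusted p = 0.0138) and Vim (vimentin) from 12.3 ± 2.32 to 63.8 ± 29.1 CPM (2.37, adjusted p = 0.0214, SD and n = 4 for each mean, edgeR). With 1 mouse omitted at a time, Lgals3 kept its call in 6 of 8 refits and Vim in 3 of 8, at adjusted p-values of up to 0.0681 and 0.0821. On AMLN, 7 of the 8 such genes measured in both genotypes had lower TSP1ΔPf4 means, where the median of all genes tested was itself -0.38. Of the 8, 2 were called lowered, beside 8.46% of all genes tested. Lgals3 stood at 10.8 ± 1.86 CPM in TSP1ΔPf4 mice (log2 fold change -1.69, adjusted p = 0.0139, called in 7 of 8 refits with a mouse omitted). Capg, an actin-capping protein, stood at 15.5 ± 7.40 CPM in TSP1F/F and 5.48 ± 1.57 in TSP1ΔPf4 mice (-1.50, adjusted p = 0.0298, called in 3 of 8). The call of Capg was lost with TMM scaling (adjusted p = 0.0680) and with all 16 mice in 1 fit (0.201). It was kept by DESeq2 (adjusted p = 0.0449) and by edgeR with the replicate block (0.0031). The median of the 8 was -0.56, beside -0.38 over all genes.

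Markers of liver cell types moved with the diet and, for some types, with the genotype. The summed level of the 10 monocyte-derived macrophage markers measured in all groups, of 12, was 48.7 to 432 CPM in LF TSP1F/F, 438 to 2378 in AMLN TSP1F/F, 47.3 to 118 in LF TSP1ΔPf4 and 141 to 243 in AMLN TSP1ΔPf4 mice. On AMLN all 10 had lower TSP1ΔPf4 means and 5 were called lowered by edgeR, namely Clec7a, Gpnmb, Lyz2, Mmp12 and Trem2, beside 8.46% of all genes tested. The median log2 fold change of the 10 was -1.80, beside -0.38 over all genes. The AMLN TSP1F/F mouse with the highest macrophage sum, replicate 4 at 2378 CPM, had the lowest S100a11, Anxa2 and Anxa5 of its group and the highest S100a6. The 4 Kupffer cell markers measured in all groups, of 10, summed to 232 to 606 CPM in AMLN TSP1F/F and 136 to 178 in AMLN TSP1ΔPf4 mice, with Cd5l, 1 of the 4, called lowered. Their median log2 fold change was -0.41, close to the -0.38 of all genes, and 1 of the 4 was higher in TSP1ΔPf4 mice. The 4 stellate cell and fibroblast markers measured in all groups, of 12, summed to 89.9 to 179 CPM in AMLN TSP1F/F and 27.2 to 113 in AMLN TSP1ΔPf4 mice, with Col3a1, 1 of the 4, called lowered. The median log2 fold change of these 4 between the genotypes on AMLN was -0.11, above the -0.38 of all genes, and 1 of the 4 lay below the latter. In AMLN TSP1F/F mice the stellate sums of replicates 3 and 4 were 179 and 177 CPM, while replicate 3 had the highest and replicate 4 the lowest Anxa2 and Anxa5 of the group. In AMLN TSP1ΔPf4 mice replicate 3 had the highest and replicate 4 the lowest stellate sum, Anxa2 and Anxa5.

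Hepatocyte markers (Ttr and Serpina1a, of 12) summed to 2695 to 5876 CPM in AMLN TSP1F/F and 4235 to 5651 in AMLN TSP1ΔPf4 mice, and the lowest sum was that of TSP1F/F replicate 3, the mouse highest in S100a11, Anxa2 and Anxa5. Endothelial markers (Stab2 and Lyve1, of 12) summed to 30.7 to 36.8 and 29.3 to 43.8 CPM, and T cell markers (Cd8a and Cd5, of 12) to 1.03 to 4.08 and 0.601 to 2.20 CPM in those groups. Bile duct, platelet and neutrophil markers had none measured in both genotypes. In TSP1F/F mice 3 of 12 bile duct markers (Krt7, Krt19 and Spp1) summed to 30.8 to 59.2 CPM on LF and 51.3 to 243 on AMLN, 2 of 10 platelet markers (Pf4 and Clec1b) to 3.75 to 6.16 and 10.4 to 17.4, and 4 of 13 neutrophil markers to 0.992 to 2.63 and 3.10 to 12.96. In TSP1ΔPf4 mice 2 bile duct markers (Epcam and Sox9) summed to 2.16 to 3.29 CPM on LF and 3.87 to 9.12 on AMLN. The part of these cell types in the members' differences was not tested.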

How the data were processed

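Liver RNA of 16 mice was sequenced by the authors as paired reads of 150 bases. Their methods name STAR and the submitters' processing notes HISAT2 as the aligner, both with mm10, and the counting program, annotation release and strand setting are not given in the sources used here. The 2 deposited tables, 1 per genotype, hold for each mouse raw counts, a normalised signal made by the authors from the counts and a size factor per library, and FPKM made by the authors from counts, gene length and a library total. They also hold the authors' fold changes and p-values for the diet. The p-values were used only to find how the deposited tables were cut and how many genes the authors adjusted over, and the fold changes were not used. All 48 columns of single mice were matched and 0 were unmatched.

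Library totals were recovered from counts, lengths and FPKM, and CPM are counts over these totals. Genes passing filterByExpr were tested with edgeR 4.0.16 (quasi-likelihood test, limma 3.58.1, R 4.3.3). The Benjamini-Hochberg adjustment covered the 16784 (TSP1F/F) or 13927 (TSP1ΔPf4) genes the authors adjusted over for the diet, and the genes of both tables (752 before the filter) for the genotype. Exact permutation tests (SciPy 1.17.1) used log2(CPM + 0.5). The spread shared between genes, and the TMM and DESeq2 scaling factors, were estimated from genes selected for a diet difference. DESeq2 1.42.0, TMM scaling, no filter, a replicate block, another adjustment, all 16 mice in 1 fit, a pseudocount of 0.1 and each mouse left out were alternatives. The test was tried on simulated data. No libraries agreed within sampling noise.

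The members and the lists were chosen with earlier results of these data known. Named genes were the members, all other measured S100 and annexin genes, called genes of the lists of partners, S100 receptors, cytoskeleton and galectin genes, and the 10 genes nearest the members by correlation. Members of small counts outside this rule, Thbs1 and the cell type markers named were chosen after their values were seen.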

Additional observations from a re-analysis of the deposited data

Results flagged for a closer look

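In 4 of the 46 groups of 4 mice formed by the named genes, 1 mouse stood apart from the other 3 by Dixon's test, which flags about 1 group in 20 by chance. None of these was S100a11, S100a6, Anxa2 or Anxa5. AMLN-fed TSP1F/F replicate 3, the mouse with the highest S100a11, Anxa2 and Anxa5, had 9.36 CPM of Anxa8, and the group mean was 3.78 CPM. AMLN-fed TSP1F/F replicate 4, the mouse with the highest S100a6 and the highest macrophage marker sum, had 7.62 CPM of S100a8, beside a group mean of 3.29 CPM. LF-fed TSP1F/F replicate 3 had 5.02 CPM of Lgals3, beside a mean of 3.27 CPM. LF-fed TSP1ΔPf4 replicate 3 had 53.9 CPM of S100a13, beside a mean of 37.2 CPM.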

How the results depend on the processing

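For the diet in TSP1F/F mice, 52 genes of the table and 1 member were called. The counts became 741 and 3 with DESeq2, 1124 and 4 with the adjustment over listed genes only, 83 genes with no filter, and 10 and 0 with the replicate block. For the diet in TSP1ΔPf4 mice, 92 genes and 0 members were called, against 1376 and 3 with DESeq2, 198 and 1 with TMM, 2187 and 3 with the adjustment over listed genes only, and 4 genes with the replicate block. The genotype comparison on AMLN called 66 genes and 0 members, and 116 and 2 with the replicate block (S100a11 at a log2 fold change of -1.04, adjusted p = 0.0184, and Anxa2 at -0.87, adjusted p = 0.0347). Neither S100a11 nor Anxa2 was called with TMM scaling, at -0.68 and -0.62, or with DESeq2, at -0.61 and -0.53. On LF 0 genes were called, and DESeq2 called 1. The interaction called 3 genes, against 44 with DESeq2, 15 with TMM and 0 with the replicate block. The cause of these changes was not tested, except that an adjustment over fewer genes gives smaller adjusted p-values.

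Leaving out 1 mouse at a time, the calls ran from 2 to 61 (diet in TSP1F/F, members 0 to 1), 1 to 182 (diet in TSP1ΔPf4, members 0 to 2), 22 to 84 (genotype on AMLN, members 0), 0 (genotype on LF) and 0 to 24 (interaction, members 0). The fewest calls for the diet in TSP1F/F came without LF replicate 4. Anxa5 reversed for the genotype on AMLN, to 0.32 with DESeq2, 0.22 with TMM, 0.011 with the replicate block, 0.31 without TSP1F/F replicate 3 and 0.15 without TSP1ΔPf4 replicate 4 (range -0.25 to 0.31 over the mice left out), and for the interaction with TMM, to 0.030. Anxa2 reversed on LF without TSP1F/F replicate 2, to 0.20 (range -0.41 to 0.20). Of 560 recomputed values of single genes and ratios 482 kept direction and call, and the smaller pseudocount changed none. FPKM in place of CPM could not change a direction or a call. The library totals were recovered from FPKM, so the measures differ only by gene length, which cancels within a gene. Any FPKM values counted among the 482 are therefore no check of the processing.

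The labels do not say that a replicate number marks a shared litter, batch or day. Deviations of mice sharing a number correlated at 0.09 to 0.40 between the genotypes on AMLN, over 0.1 for 3 of the 4 numbers, which also matched best with themselves, and at -0.36 to 0.29 between the diets in TSP1F/F mice. Since not every number passed 0.1, the numbers were not taken as pairs. Since the tables hold genes selected on the diet, edgeR's shared spread and the TMM and DESeq2 scaling factors come from selected genes. The median diet log2 fold change of those tested was 1.15 in TSP1F/F and -0.54 in TSP1ΔPf4 mice, and its effect on the scaling was not tested. Depth limits S100a11 and S100a6 most, with 41 to 104 and 26 to 80 counts per LF library of TSP1ΔPf4 and TSP1F/F mice, respectively.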
